A study of Caenorhabditis elegans with 8 samples.

Results

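The coding sequences (CDS) described here were those with a ribosome occupancy of at least 10 RPKM in at least 1 of 3 libraries of larval stage 4 (L4) Caenorhabditis elegans, the table's columns numbered 5, 6 and 7. RPKM is the number of reads scaled to the length of the feature and to the reads of the library. Of 20505 CDS, 7320 met this rule and 13185 did not, 2057 of which were at 0 in all 3 libraries. The nearest CDS inside the rule, C44C1.6, had 7.12, 6.06 and 10.0 RPKM in libraries 5, 6 and 7. The nearest outside, F28D1.6, had 9.99, 8.76 and 3.86 RPKM.

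The series held 8 libraries of whole worms of the wild-type strain N2, 4 from young adults and 4 from L4 larvae. All worms hatched from egg preparations and grew as L1 larvae on peptone-rich NGM plates with the bacterial strain NA22. In the L4 experiment, RNA of purified monosomes was separated on a TBE-urea gel and a window of fragment lengths was cut out. The 4 windows were 25 to 30, 28 to 30, 28 to 35 and 26 to 34 nt. No label ties a numbered column to a window, so the libraries are called by number and no difference is assigned to a window. How the L4 monosomes were purified was not given in the labels. Each library stands alone, so no difference has a replicate check, no p-value is given, and each comparison is of libraries. There was no matched mRNA library, so occupancy does not separate the amount of an mRNA from its translation.

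Ribosome profiling sequences the pieces of mRNA that a ribosome shields from nuclease, the ribosome-protected fragments. The length of a fragment depends on how the nuclease trimmed around the ribosome and on the ribosome's state when it was stopped. A gel window therefore sets which fragments enter a library. In L4 larvae the epidermis makes the collagens of the adult cuticle, the hermaphrodite germ line makes sperm, and the oocyte and yolk programmes of the adult have barely begun.

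Libraries 5, 6 and 7 held 26078844, 21814060 and 4999364 reads. Of the reads recovered for all CDS, 96.5% to 96.6% lay in the 7320 CDS. The median CDS had 923 reads in library 5, 775.5 in library 6 and 173 in library 7. Library 7 had fewer than 100 reads for 2256 of the CDS, against 173 in library 5 and 236 in library 6. The L4 label was checked on marker genes. The yolk protein gene vit-6 had 21.5, 22.8 and 25.2 RPKM in libraries 5, 6 and 7, against 7120 to 7690 RPKM in the 4 young-adult libraries. The cuticle collagen sqt-1 had 2400, 2460 and 2560 RPKM, against at most 1.33 RPKM in the young adults. The remaining L4 library, number 8, had 8030 RPKM for vit-6 and 5.14 RPKM for sqt-1, which go against its label, and it was not compared here.

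Differences are given as log2(RPKM + 1) of the first library minus that of the second. The pseudocount of 1 understates the difference of CDS with a low RPKM. Reads per CDS were recovered from the RPKM steps, and an exact 95% interval of the ratio of reads was computed for each CDS. A CDS was called where RPKM + 1 differed by at least 1.5-fold and the interval left out a ratio of 1. Fold values below are of RPKM + 1, whereas the intervals beside them are of the ratio of reads without a pseudocount. At low RPKM a fold can therefore lie off the centre of its interval or outside it. Intervals cover counting error only, since reads without molecular identifiers are not independent molecules. The spread of the differences over CDS was compared with the SD that read counts alone would give, and what remained is called the excess SD. In whole worms, fewer cells of a type and less RNA per cell cannot be told apart.

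Libraries 5 and 6 were close. Of the 7320 CDS, 60 were called (0.82%), 38 higher in library 5 (0.519%) and 22 higher in library 6 (0.301%). The log2 differences had an SD of 0.18, read counts alone gave 0.09, and the excess SD was 0.16. Smaller differences were frequent, since the counting interval left out a ratio of 1 for 2834 CDS (38.7%). Libraries 5 and 7 differed more, with 1221 CDS called (16.7%), 626 higher in library 5 (8.55%) and 595 higher in library 7 (8.13%). The interval left out 1 for 4213 CDS (57.6%). Their SD was 0.45 where counts gave 0.15, an excess SD of 0.43. With each library centred on its median, the split of the calls became 483 higher in library 5 and 715 higher in library 7. Libraries 6 and 7 gave 1267 called CDS (17.3%), 627 higher in library 6 (8.57%) and 640 higher in library 7 (8.74%), with an excess SD of 0.43. Centring changed this split to 519 and 731. Here the interval left out 1 for 4256 CDS (58.1%). At 2-fold, 7 CDS (0.0956%) were called between libraries 5 and 6, 228 (3.11%) between 5 and 7 and 227 (3.1%) between 6 and 7. Read depth accounted for 23.0% of the variance between libraries 5 and 6, for 10.9% between 5 and 7 and for 11.1% between 6 and 7. The pairs with library 7 share that library, so they do not support each other.

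**Figure D1:**
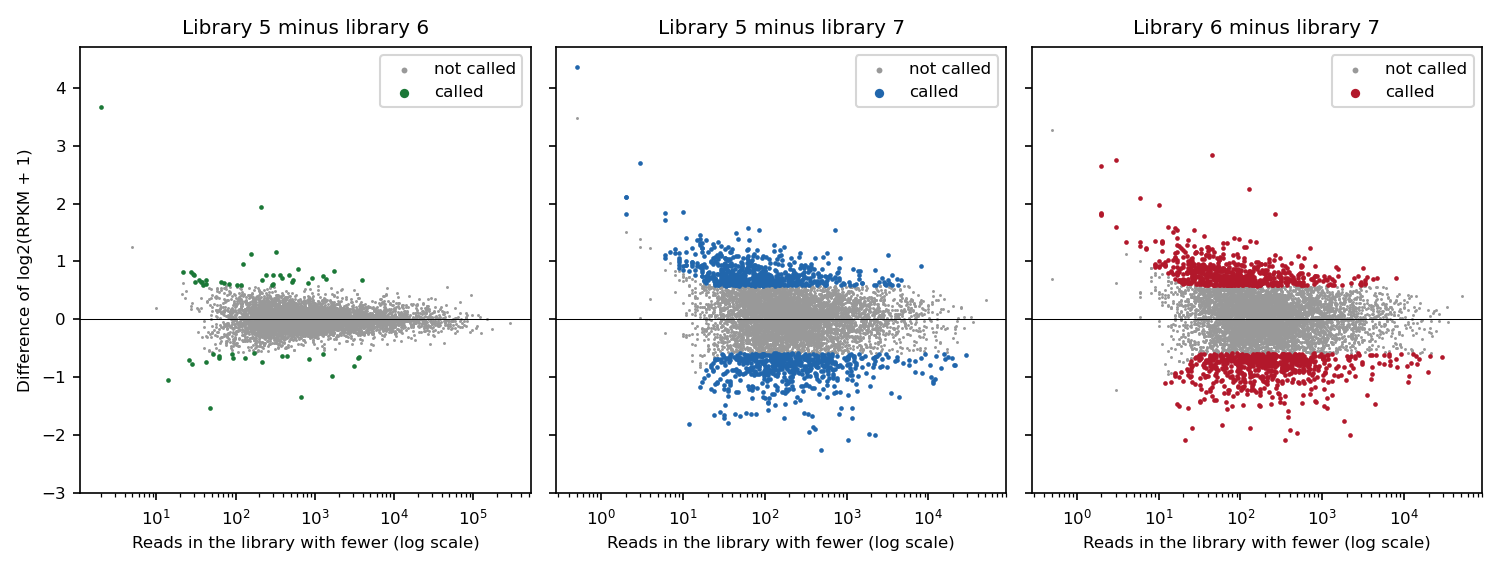
Difference of log2(RPKM + 1) for each CDS (y axis) against the reads of the CDS in the library of the pair that had fewer (x axis, log scale, with 0 reads drawn at 0.5), for the 3 pairs of libraries. Coloured points are the 60, 1221 and 1267 called CDS. Called CDS of the pairs with library 7 reach far to the right, where reads are many and counting error is small.

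The same CDS in pairs of young-adult libraries that differed in monosome isolation or library preparation give a scale. Among those with at least 10 RPKM in 1 library of the pair, the excess SD of these pairs ran from 0.28 to 0.32 and 2.78% to 7.92% were called. The excess SD of libraries 5 and 6 lay below that range, and that of both pairs with library 7 lay above it.

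Gene lists for 40 protein classes with at least 5 of the CDS were described by their counts and medians, set beside all 7320 CDS. A class is called higher or lower where its median log2 difference lay at least 0.1 from that of all CDS. Between libraries 5 and 6, 3 classes were higher in library 5 and the other 37 lay within 0.1. Between libraries 5 and 7, 13 classes were higher in library 5 and 6 higher in library 7, and between libraries 6 and 7 the numbers were 13 and 6. Lists overlap: the furrow collagens are part of the cuticle collagens, and some neuropeptide-like genes are also in the antimicrobial-like list. Genes such as nspd-1 and nspd-2 are in both the other sperm proteins and the nematode-specific peptides. act-4 is in both the muscle list and that of actins and tubulins. No median is a test, since members of a list share their library.

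**Figure D2:**
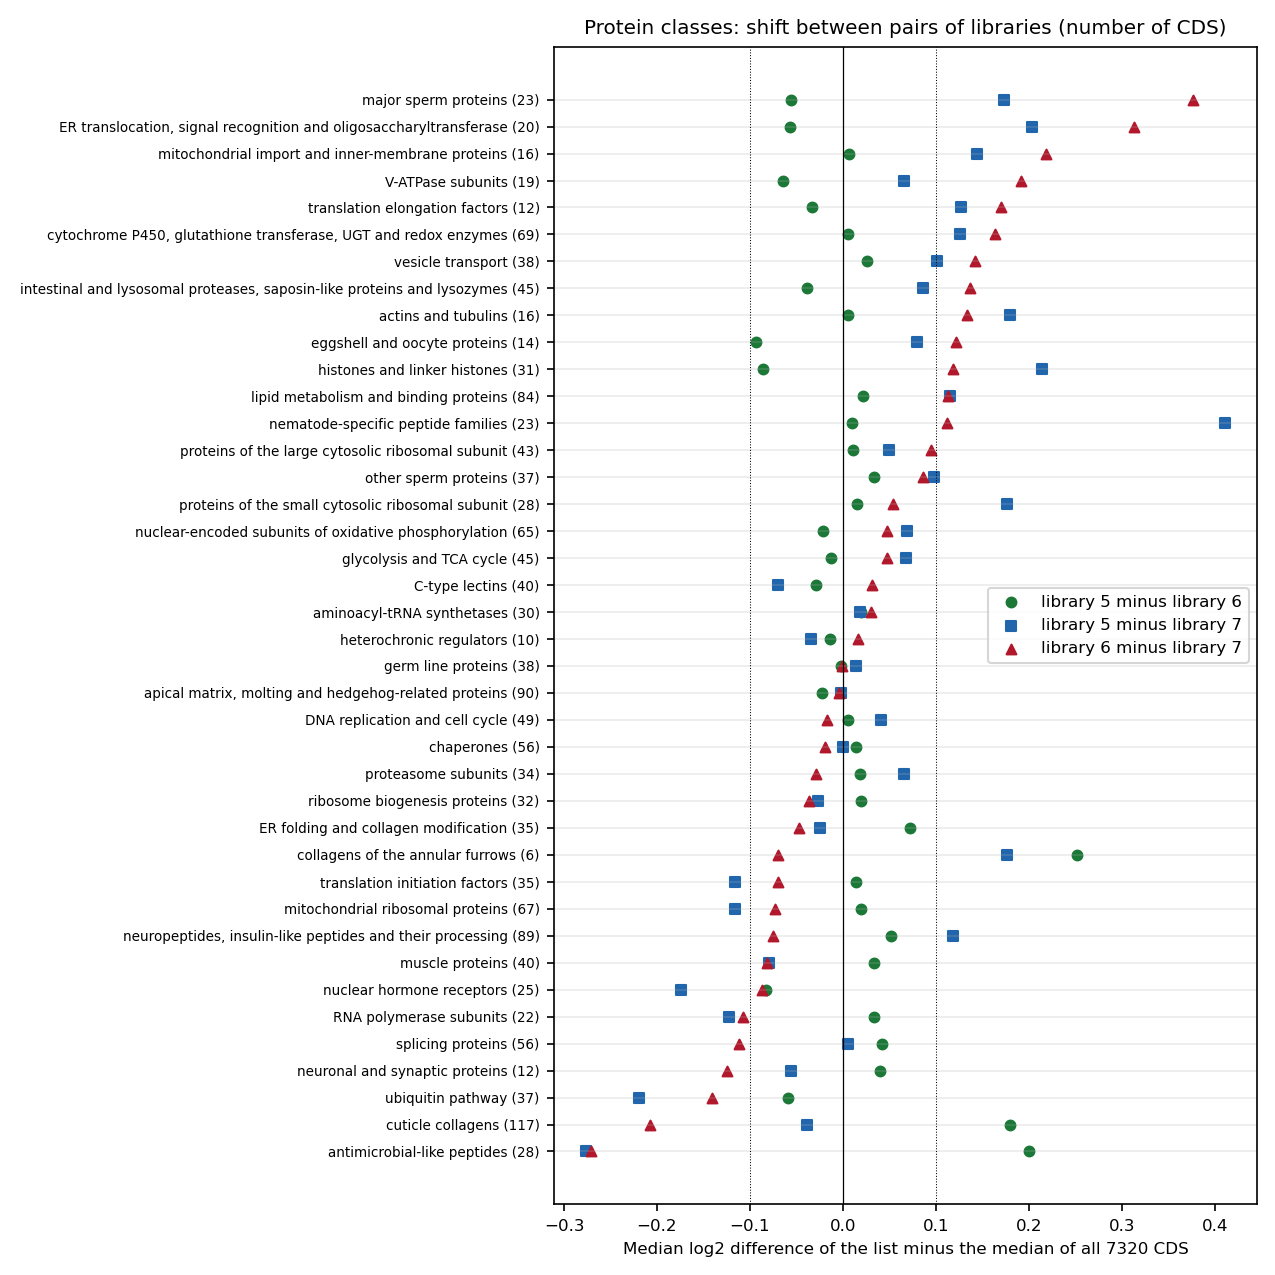
Median log2 difference of each protein class minus the median of all 7320 CDS (x axis), for 40 classes (y axis, with the number of CDS), with 1 point for each pair of libraries and dotted lines at -0.1 and 0.1. Between libraries 5 and 6 the collagens and antimicrobial-like peptides lie to the right, and in the pair 6 and 7 the major sperm proteins lie farthest right and the antimicrobial-like peptides farthest left.

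The medians of the cuticle collagens, of the furrow collagens among them and of the antimicrobial-like peptides lay higher in library 5 than in library 6, with few single CDS called. Cuticle collagens form the exoskeleton that the worm replaces at each molt. Their median log2 difference was 0.18 above that of all CDS, and 98 of 117 were higher in library 5. Only 3 of the 117 (2.56%) were called, against 0.82% of all CDS. Collagens took 7.69% of the reads of library 5, 7.08% of library 6 and 7.74% of library 7. The exact intervals of these shares were 7.68% to 7.70%, 7.07% to 7.09% and 7.71% to 7.76%. Library 6 thus had the lowest collagen share of the 3 by more than counting error.

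The 6 collagens of the annular furrows, the circumferential grooves of the cuticle, were all higher in library 5 than in library 6, by 0.25 in the median relative to all CDS. None was called. Among them dpy-7 had 488, 393 and 800 RPKM in libraries 5, 6 and 7. It was called against library 7 in both pairs, at 1.64-fold library 5 (interval 1.58 to 1.70) and 2.04-fold library 6 (1.96 to 2.12). Another of the 6, dpy-3, did not follow, with 690, 568 and 549 RPKM. dpy-10 had 460, 399 and 420 RPKM. The furrow collagens therefore moved alike between libraries 5 and 6 but not against library 7, where their excess SD was 0.47 in both pairs.

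Against library 6, cuticle collagens were higher in library 7 by 0.21 in the median. Of them, 19 were called higher in library 7 and 2 higher in library 6 (17.9% in all). Of all CDS, 17.3% were called in this pair, 8.74% higher in library 7 and 8.57% higher in library 6. Against library 5 the collagen median lay within 0.04 of all CDS, with 5 called higher in library 5 and 6 higher in library 7. Of the collagens 9.4% were called there, against 16.7% of all CDS. col-167 ran the other way, with 449, 362 and 153 RPKM, and was 2.92-fold higher in library 5 than in library 7 (interval 2.72 to 3.17). The most occupied collagens differed little: dpy-4 had 4150, 4220 and 4670 RPKM, and sqt-3 had 4270, 3930 and 4640 RPKM. dpy-5 had 4550, 4330 and 3550 RPKM. None of these 3 was called in any pair.

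Antimicrobial-like peptides are small secreted peptides, several of which the epidermis makes after wounding or fungal infection. Their median was 0.20 higher in library 5 than in library 6, and 21 of 28 were higher there. Of the 28, 2 were called higher in library 5 (7.14%, against 0.82% of all CDS called). In the pairs with library 7 their median was 0.28 below that of all CDS for library 5 and 0.27 below for library 6. They were called often in both pairs, 12 of 28 (42.9%) for library 5, with 6 in each direction, and 13 of 28 (46.4%) for library 6, with 10 higher in library 7. Of all CDS, 16.7% and 17.3% were called in these pairs, and of those up to 610 bases 28.7% in each. The caenacin cnc-8 had 279, 170 and 466 RPKM and was called in all 3 pairs. The most occupied member, fipr-21, had 1480, 1010 and 1560 RPKM. nlp-33, an epidermal peptide of the neuropeptide-like family, had 817, 573 and 583 RPKM. Library 6 had the lowest value for all 3, though nlp-33 differed little between libraries 6 and 7. The list took 0.130%, 0.0997% and 0.140% of reads.

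Other apical matrix, molting and hedgehog-related proteins showed no such shift. Their median lay within 0.03 of all CDS in each pair, and 1, 10 and 12 of 90 were called. One of them, the ground-like gene grl-23, had 14.7, 6.18 and 14.2 RPKM, lowest in library 6. The cuticlin cut-2 had 1580, 1310 and 1110 RPKM, and none of its differences was called.

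Proteins that carry other proteins into the endoplasmic reticulum (ER) had higher medians in libraries 5 and 6 than in library 7. The list of translocation channel, signal recognition and oligosaccharyltransferase subunits had a median 0.20 above that of all CDS for library 5 against 7 and 0.31 above for library 6 against 7. In the second of these pairs 15 of 20 were higher in library 6. Of the 20, 6 were called (30.0%, against 17.3% of all CDS), 5 of them higher in library 6. The gamma subunit of the channel, sec-61.G, had 1740, 2050 and 1480 RPKM. The beta subunit, sec-61.B, had 2140, 1990 and 2770 RPKM, highest in library 7. The members therefore did not all lie on one side. tram-1, a translocation-associated membrane protein chosen after its values were seen, had 160, 187 and 87.1 RPKM. Folding and collagen-modifying proteins of the ER lay within 0.08 of all CDS in each pair. Of these the lumenal chaperone crt-1 (calreticulin) had 3350, 3150 and 5050 RPKM and was called higher in library 7 in both pairs.

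V-ATPase subunits, which acidify lysosomes and secretory vesicles, shifted together with little spread. Their median was 0.19 higher in library 6 than in library 7, and 17 of 19 were higher there with 1 called. For library 5 against 7 their median lay 0.07 above that of all CDS, and 15 of 19 were higher in library 5. Between libraries 5 and 6, 16 of 19 were higher in library 6, by 0.06 in the median. vha-12, a subunit of the catalytic part, had 1060, 1140 and 838 RPKM. vha-2, of the membrane ring, had 2060, 2080 and 1900 RPKM. Their excess SD was 0.07 between libraries 5 and 6, 0.24 between 5 and 7 and 0.23 between 6 and 7, among the lowest of the classes.

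Vesicle transport proteins had a median 0.10 higher in library 5 and 0.14 higher in library 6, each against library 7. In the second pair 7 of 38 were called higher in library 6 and 2 higher in library 7. The share called there was 23.7%, against 17.3% of all CDS. The small GTPase arf-5 had 803, 920 and 545 RPKM. Lysosomal and intestinal proteases lay 0.14 above all CDS for library 6 against 7 and 0.09 above for library 5. asp-1, an aspartic protease of the intestine, had 3160, 3610 and 3470 RPKM.

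Mitochondrial import proteins spread the most of the classes between libraries 5 and 7. Their log2 differences had an SD of 0.75 where read counts gave 0.09. Of 16 import proteins, 6 were called (37.5%, against 16.7% of all CDS), 5 of them higher in library 5. Their medians were 0.14 above all CDS for library 5 and 0.22 above for library 6 against library 7. tin-9.1, a small chaperone of the space between the mitochondrial membranes, had 161, 243 and 686 RPKM. It was 4.25-fold higher in library 7 than in library 5 (interval 3.93 to 4.64) and 1.51-fold higher in library 6 than in library 5 (1.41 to 1.63). Its log2 difference of library 5 minus library 7, -2.087, was the lowest of the class, where the highest was 1.143. This 1 CDS thus weighs heavily on the SD of the class in that pair. Another of these chaperones, ddp-1, ran the other way with 904, 780 and 409 RPKM. It was 2.21-fold higher in library 5 than in library 7 (2.03 to 2.41). Of the paired prohibitins, scaffold proteins of the inner membrane, phb-2 had 855, 897 and 544 RPKM and phb-1 had 542, 531 and 783 RPKM. The prohibitins, which form 1 complex, thus differed in direction. The class total changed far less, with 0.294%, 0.297% and 0.276% of reads.

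Mitochondrial ribosomal proteins lay 0.12 below all CDS for library 5 against 7, and 12 of 67 (17.9%) were called in each pair with library 7, close to the shares of all CDS. mrpl-41, of the large mitochondrial subunit, stood out with 195, 193 and 775 RPKM. It was 3.97-fold higher in library 7 than in library 5 (interval 3.77 to 4.21) and 4.00-fold higher than in library 6 (3.78 to 4.25), on 2899, 2407 and 2213 reads. mrpl-15 had 132, 136 and 287 RPKM. mrps-16, of the small subunit, had 201, 195 and 149 RPKM and was not called. The copper chaperone of cytochrome c oxidase, cox-17, had 107, 114 and 345 RPKM. The 65 nuclear-encoded subunits of oxidative phosphorylation lay within 0.07 of all CDS in each pair, with 0, 6 and 5 called. The ATP synthase subunit atp-2 had 2890, 3140 and 2830 RPKM.

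Cytosolic ribosomal proteins had many reads per CDS and little counting error, and those of the large subunit spread widely. Large-subunit proteins had an SD of 0.56 between libraries 5 and 7, where read counts gave 0.06, and 13 of 43 (30.2%) were called, 6 higher in library 5 and 7 higher in library 7. Between libraries 6 and 7 the SD was 0.63, and 12 (27.9%) were called, 5 higher in library 6 and 7 higher in library 7. Of all CDS, 16.7% and 17.3% were called in these pairs. The SD of the pair 6 and 7 leans on 1 gene, rpl-37.2, whose difference of 2.829 was the highest of the list. The value of that gene is uncertain, as described below. The large-subunit proteins together took 5.08%, 5.08% and 5.13% of reads. rpl-18, the most occupied, had 4100, 4540 and 7020 RPKM on 63586, 58959 and 20888 reads. rpl-10L had 4540, 3950 and 2400 RPKM. rpl-36 had 4270, 4370 and 5100 RPKM and was not called. Proteins of 1 ribosomal subunit, which are needed in equal numbers, thus lay on both sides between library 7 and the others.

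One large-subunit gene, rpl-37.2, had the widest range of all CDS with at least 100 reads in the highest library. It had 84.8, 217 and 29.6 RPKM in libraries 5, 6 and 7, on 672, 1436 and 45 reads, and differed in all 3 pairs. It was 7.11-fold higher in library 6 than in library 7 (interval 5.44 to 10.1), 2.54-fold higher in library 6 than in library 5 (2.33 to 2.80) and 2.80-fold higher in library 5 than in library 7 (2.12 to 3.96). Its paralog rpl-37.1, chosen after its values were seen, had 231, 190 and 139 RPKM. The paralogs lay in opposite directions between libraries 5 and 6, and both were lowest in library 7. How reads that fit both genes were counted was not given in the sources used here, so their single values are uncertain.

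Small-subunit proteins were called about as often as all CDS, 4 of 28 (14.3%) in each pair with library 7 and none between libraries 5 and 6. Their median was 0.18 above all CDS for library 5 against 7 and 0.05 above for library 6 against 7, and their shares of reads were 3.73%, 3.60% and 3.50%. rps-29 had 5430, 7270 and 7860 RPKM, rps-25 had 6150, 6300 and 5240 RPKM, and neither was called. Elongation factors were higher in libraries 5 and 6, by 0.13 and 0.17 in the median. eef-1A.1, which brings tRNA to the ribosome, had 9030, 9450 and 7140 RPKM. eef-2, which moves the ribosome along, had 2220, 2170 and 1930 RPKM. iff-2, an eIF5A homolog, was called higher in library 7 in both pairs, with 1300, 1310 and 2240 RPKM. Elongation factors took 2.66%, 2.74% and 2.28% of reads. Initiation factors lay 0.12 below all CDS for library 5 against 7, with 3 of 35 called, and inf-1, the helicase eIF4A, had 815, 824 and 781 RPKM.

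**Figure D3:**
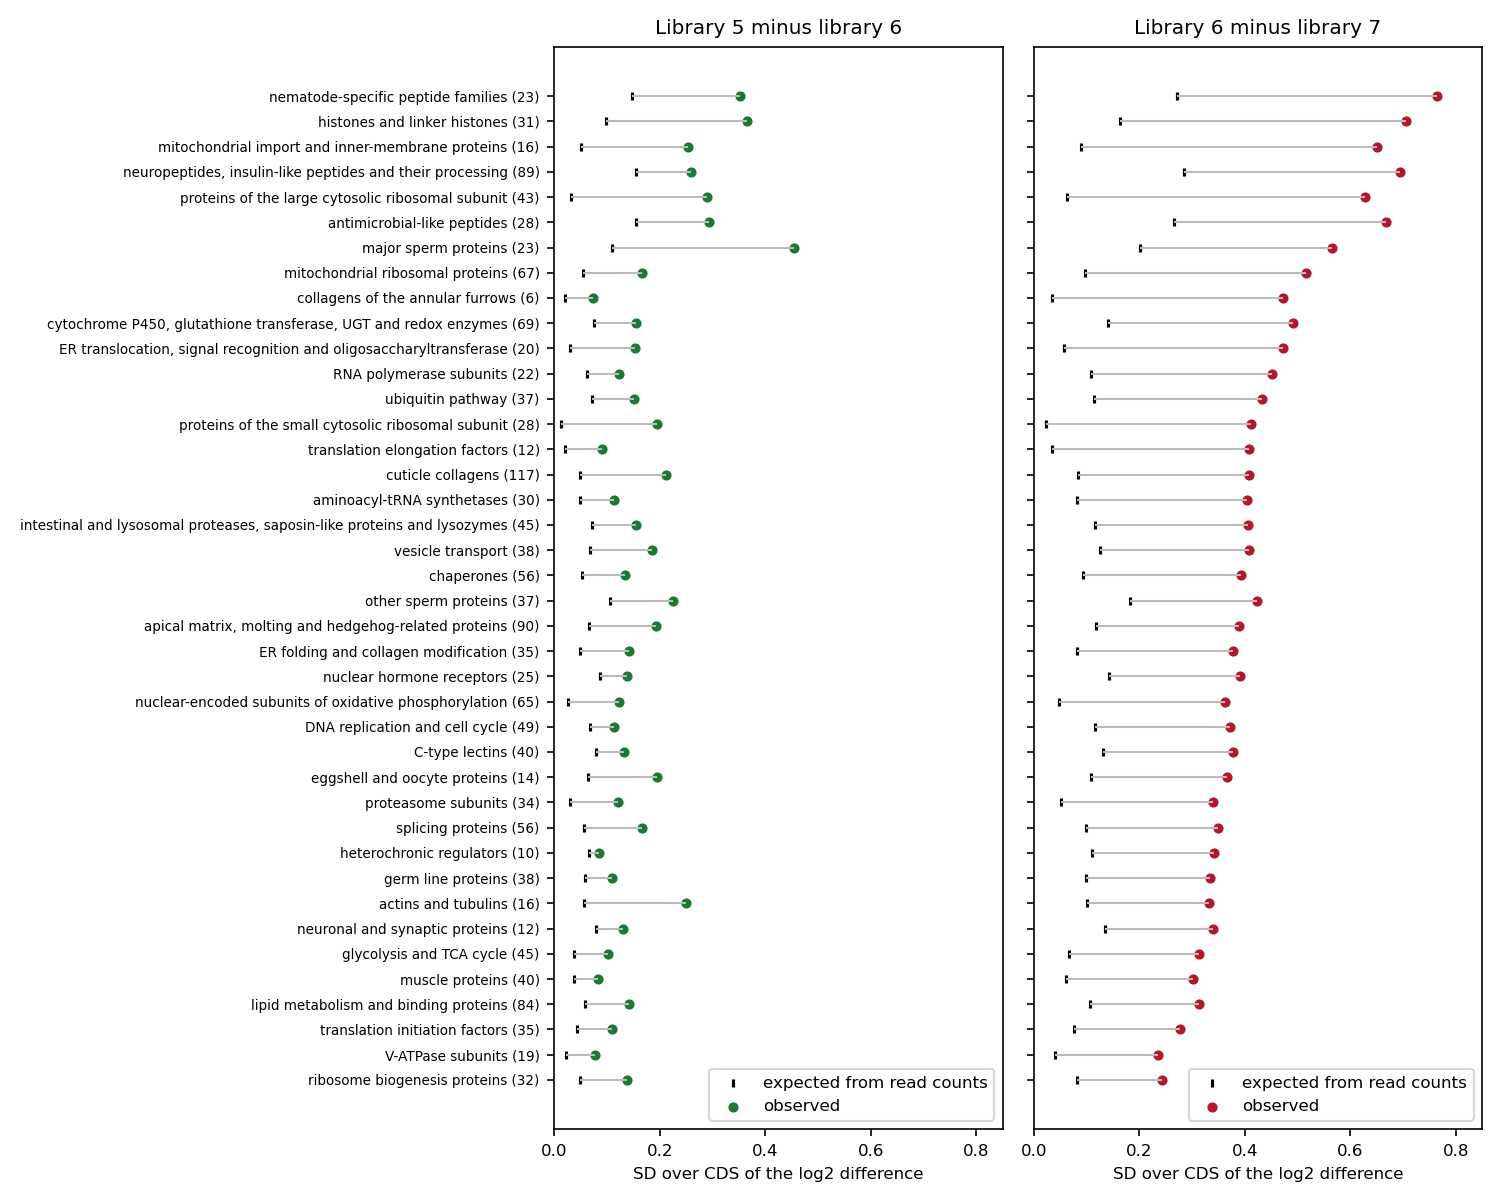
SD over CDS of the log2 difference (coloured points) and the SD expected from read counts alone (black marks) for each of 40 protein classes, between libraries 5 and 6 (left) and 6 and 7 (right). Nematode-specific peptides, histones and neuropeptides have the highest observed SD on the right (0.77, 0.71 and 0.69), and V-ATPase subunits and ribosome biogenesis proteins the lowest (both 0.24).

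Major sperm proteins, histones and nematode-specific peptides had the largest excess SD of the classes between libraries 5 and 6 (0.44, 0.35 and 0.32). Major sperm proteins, the motor of the crawling nematode sperm, had an SD of 0.45 in that pair where read counts gave 0.11. Of 23, 3 were called (13.0%, against 0.82% of all CDS), 2 higher in library 5 and 1 higher in library 6. msp-10 had 4.37, 14.5 and 17.5 RPKM, and was 2.88-fold higher in library 6 than in library 5 (interval 2.35 to 4.72). msp-45 ran the other way with 106, 61.6 and 45.5 RPKM, as did msp-40 with 68.9, 40.2 and 29.6 RPKM. The most occupied copies differed less: msp-50 had 157, 190 and 110 RPKM, and msp-36 had 139, 168 and 132 RPKM. Against library 7 the family was higher by 0.17 in library 5 and by 0.38 in library 6, in the median, with 8 called higher in each and 2 and 1 higher in library 7. In these pairs 43.5% and 39.1% of the family were called, against 16.7% and 17.3% of all CDS. The family's share of reads was 0.0610%, 0.0632% and 0.0476%, lowest in library 7 by more than counting error (0.0457% to 0.0496%). The other sperm proteins lay within 0.10 of all CDS in each pair.

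Histones, which package DNA, had 4 of 31 called between libraries 5 and 6 (12.9%, against 0.82% of all CDS), all higher in library 6. his-48 had 159, 312 and 64.5 RPKM and was 4.78-fold higher in library 6 than in library 7 (interval 4.05 to 5.82). his-62, with the same feature length, had 342, 534 and 278 RPKM. his-59 ran the other way against library 7, with 272, 344 and 530 RPKM. The variant histone his-72 had 811, 863 and 717 RPKM and was not called. The median of the histones lay 0.21 above all CDS for library 5 against 7 and 0.12 above for library 6 against 7. Between libraries 6 and 7, 6 histones were called higher in library 6 and 4 higher in library 7. That was 32.3% of the histones, against 17.3% of all CDS. The histones together took 0.227%, 0.247% and 0.216% of reads.

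Nematode-specific peptide families were higher in library 5 than in library 7 by 0.41, the largest class shift of that pair, and by 0.11 in library 6. In these pairs 34.8% and 39.1% of the 23 were called, against 16.7% and 17.3% of all CDS. Of the 23, 7 and 8 were called higher in library 5 and library 6, and 1 was called higher in library 7 in each. That one, nspc-14, had 65.1, 64.8 and 245 RPKM. nspc-7 had 96.3, 154 and 58.1 RPKM. Actins and tubulins had medians 0.18 and 0.13 above all CDS for libraries 5 and 6 against 7, and 13 and 10 of 16 were lower in library 7. Of these, act-3 had 125, 69.7 and 63.7 RPKM and was 1.78-fold higher in library 5 than in library 6 (interval 1.69 to 1.89). The muscle actin act-4 had 2590, 2840 and 2870 RPKM. act-5, the actin of the intestinal microvilli, had 1400, 1470 and 2500 RPKM and was called in both pairs with library 7. For the sperm, histone, actin and nematode-specific families, the counting of shared reads was not given, and single copies are uncertain.

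Ubiquitin pathway proteins were higher in library 7, by 0.22 against library 5 and by 0.14 against library 6. Of 37, 9 were called higher in library 7 and 1 higher in library 5, and against library 6 these numbers were 7 and 1. skr-1, a Skp1-type ubiquitin ligase subunit, had 609, 649 and 975 RPKM. The polyubiquitin gene ubq-1 had 516, 547 and 470 RPKM and was not called. RNA polymerase subunits had medians 0.12 and 0.11 below all CDS for libraries 5 and 6 against 7, with 4 and 5 of 22 called (18.2% and 22.7%). The members were split, with 12 and 11 of them higher in library 7. rpb-11 had 161, 155 and 256 RPKM, whereas rpb-10 had 236, 231 and 181 RPKM. Nuclear hormone receptors were higher in library 7 than in library 5 by 0.17, and 4 of 25 were called in each pair with library 7 (16.0%). nhr-49, a regulator of fat metabolism, had 44.6, 47.4 and 88.6 RPKM.

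Detoxification and redox enzymes were called more often than all CDS in the pairs with library 7, 19 of 69 (27.5%) between libraries 5 and 7 and 18 (26.1%) between libraries 6 and 7. Their medians were higher in libraries 5 and 6, by 0.13 and 0.16. The most occupied, the peroxiredoxin prdx-2, lay on the other side with 1920, 2340 and 3320 RPKM. The glutathione transferase gst-13 did too, with 323, 342 and 645 RPKM. Lipid metabolism and binding proteins were higher in libraries 5 and 6 than in library 7, by 0.12 and 0.11 in the median, and 59 and 63 of 84 lay on that side. Of the fatty acid and retinol binding proteins far-2 had 8440, 9970 and 9390 RPKM and far-1 had 3850, 4240 and 6040 RPKM.

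Neuropeptides and insulin-like peptides were called in 27 of 89 cases (30.3%) against library 7 for library 5 and in 29 (32.6%) for library 6, almost evenly in the directions. Of all CDS, 16.7% and 17.3% were called in these pairs. Of the CDS up to 610 bases, 28.7% were called in each, and the shares of these peptides lay near that. The median of the neuropeptide list was 0.12 higher in library 5 than in library 7. That direction turned with occupancy: the 22 with at least 50 RPKM in 1 library had a median of -0.53 relative to all CDS, and those worth at least 100 reads at the depth of library 7 had -0.37. nlp-40, an intestinal signal of the defecation rhythm, had 316, 302 and 358 RPKM. Neuronal and synaptic proteins had 12 members, and 0, 0 and 1 were called. unc-43, a calcium-dependent kinase, had 50.3, 51.9 and 65.6 RPKM.

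The remaining classes named here were called about as often as all CDS or less. Muscle proteins had 0, 4 and 4 of 40 called, and their excess SD was 0.07 between libraries 5 and 6. The troponin pat-10 had 4580, 4400 and 6510 RPKM and was not called. The tropomyosin lev-11 had 2350, 2290 and 3600 RPKM and was called in both pairs with library 7. Ribosome biogenesis proteins had 0 of 32 called in any pair, and the nucleolar methyltransferase fib-1 had 901, 861 and 911 RPKM. Germ line proteins had 0, 2 and 3 of 38 called. The P granule helicase glh-1 had 306, 295 and 289 RPKM. Of the heterochronic regulators, which time larval stages, 0, 1 and 1 of 10 were called. lin-42, the period homolog, had 65.4, 70.3 and 75.3 RPKM. Chaperones were called at 0, 7 and 10 of 56, and the cytosolic hsp-1 had 2860, 2720 and 2780 RPKM. Proteasome subunits had 0, 4 and 2 of 34 called, with 461, 564 and 721 RPKM for the core subunit pbs-5. Glycolysis and TCA cycle enzymes had 0, 6 and 4 of 45 called, and the aldolase aldo-2 had 1580, 1500 and 1140 RPKM. Splicing proteins had 0, 6 and 6 of 56 called and lay 0.11 below all CDS for library 6 against 7. DNA replication and cell cycle proteins had 0, 5 and 5 of 49 called, aminoacyl-tRNA synthetases 0, 2 and 4 of 30, and eggshell and oocyte proteins 0, 1 and 2 of 14. C-type lectins had 0, 4 and 5 of 40 called, and all of these were higher in library 7. The most occupied lectin, clec-63, had 1800, 2110 and 2670 RPKM and was not called.

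Over the 40 classes, 30 had no called CDS between libraries 5 and 6, 3 had none between libraries 5 and 7 and 1 had none between libraries 6 and 7. The share called passed that of all CDS in 10, 13 and 15 classes. Most called CDS lay outside the lists, as did most of the 7320 CDS, of which 1552 were in a list. Of the 60 called between libraries 5 and 6, 20 were in a list, a larger part than of all CDS. In the pairs with library 7 the part was about that of all CDS, 243 of 1221 for library 5 and 264 of 1267 for library 6.

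Single CDS outside the lists differed as well. ZK1248.20 had 70.5, 17.5 and 23.0 RPKM, and was 3.86-fold higher in library 5 than in library 6 (interval 3.46 to 4.69) and 2.97-fold higher than in library 7 (2.37 to 4.01). sid-2, an intestinal membrane protein for the uptake of double-stranded RNA, had 54.1, 29.1 and 32.4 RPKM and was also called in both pairs with library 5. dod-6 had 562, 985 and 524 RPKM, highest in library 6. rpm-1, a ubiquitin ligase that shapes presynaptic terminals, had 11.7, 19.3 and 4.76 RPKM. Its feature spans 11301 bases and held 3459, 4760 and 269 reads. The intervals of its ratio of reads, 1.57 to 1.72 for library 6 over library 5 and 3.59 to 4.60 for library 6 over library 7, left out 1, and it was called in all 3 pairs.

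Several CDS differed far more from library 7 than between libraries 5 and 6. C33A12.4 had 95.7, 117 and 459 RPKM and was 4.76-fold higher in library 7 than in library 5 (interval 4.23 to 5.43). C17F3.1 had 67.9, 61.1 and 263 RPKM. The zinc finger gene znf-706 had 379, 442 and 1500 RPKM and was 3.93-fold higher in library 7 than in library 5 (3.71 to 4.19). pie-1, a maternal protein that keeps the embryo's germ cells silent, had 9.44, 11.2 and 33.0 RPKM on 255, 254 and 171 reads. On the other side, ZC404.2 had 21.8, 22.7 and 2.52 RPKM, but only 3 reads in library 7, so its interval of library 5 over library 7 ran from 2.89 to 42.4. K12B6.11 had 20.5, 24.8 and 5.04 RPKM on 127, 129 and 6 reads.

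**Figure D4:**
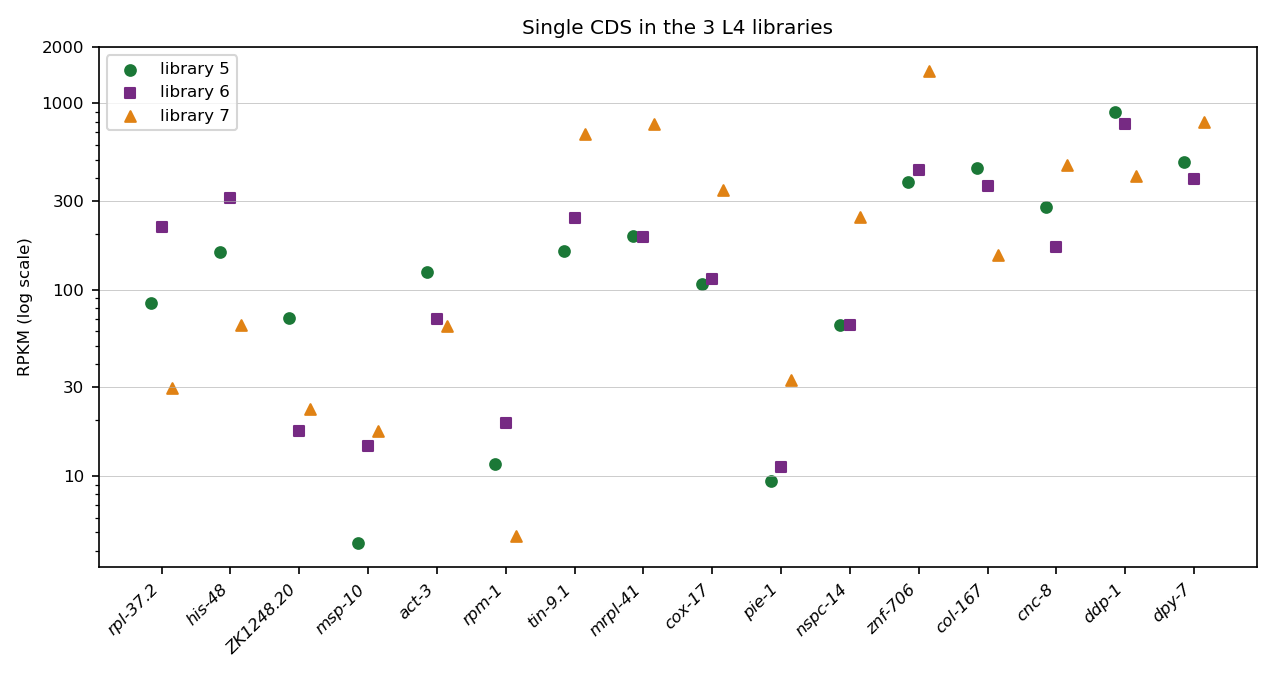
RPKM (y axis, log scale) of 16 CDS in libraries 5, 6 and 7, with 1 point for each library and no error bars, since each library stands alone. rpl-37.2, his-48 and rpm-1 are highest in library 6 and lowest in library 7, whereas tin-9.1, mrpl-41, cox-17, pie-1, nspc-14 and znf-706 are highest in library 7.

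The called CDS had short features. Their median length was 289.5 bases between libraries 5 and 6, 685 between 5 and 7 and 696 between 6 and 7, where the median of all 7320 CDS was 1024.5. Of the 60 called between libraries 5 and 6, 48 were among the 1830 shortest CDS, those up to 610 bases. In this shortest group 2.62%, 28.7% and 28.7% were called in the pairs 5 and 6, 5 and 7, and 6 and 7. Of the 1822 longest CDS, those of 1620 bases or more, 0.0549%, 6.97% and 7.63% were called. The excess SD, which takes counting error off, declined the same way, from 0.24, 0.57 and 0.56 in the shortest group to 0.09, 0.31 and 0.32 in the longest.

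Occupancy was set beside length. Among CDS above the median RPKM, 28.6% of the shortest and 6.79% of the longest were called between libraries 5 and 7. Grouped by mean RPKM instead, 18.9%, 15.0%, 16.1% and 16.7% were called from the least to the most occupied group in that pair. In the pair 5 and 6 these shares were 1.42%, 0.656%, 0.437% and 0.765%, highest in the least occupied group. Of the classes, nematode-specific peptides had a median feature of 250.0 bases, antimicrobial-like peptides of 254.5 and neuropeptides of 310.0. Histones and major sperm proteins had a median of 412, large-subunit ribosomal proteins of 472 and mitochondrial import proteins of 584.5. Among the import proteins, tin-9.1 and ddp-1 had features of 305 and 280 bases, and phb-2 and phb-1 of 913 and 856. V-ATPase subunits had a median of 1003 bases and ribosome biogenesis proteins of 1490.5. The part of length in the class differences was not tested.

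**Figure D5:**
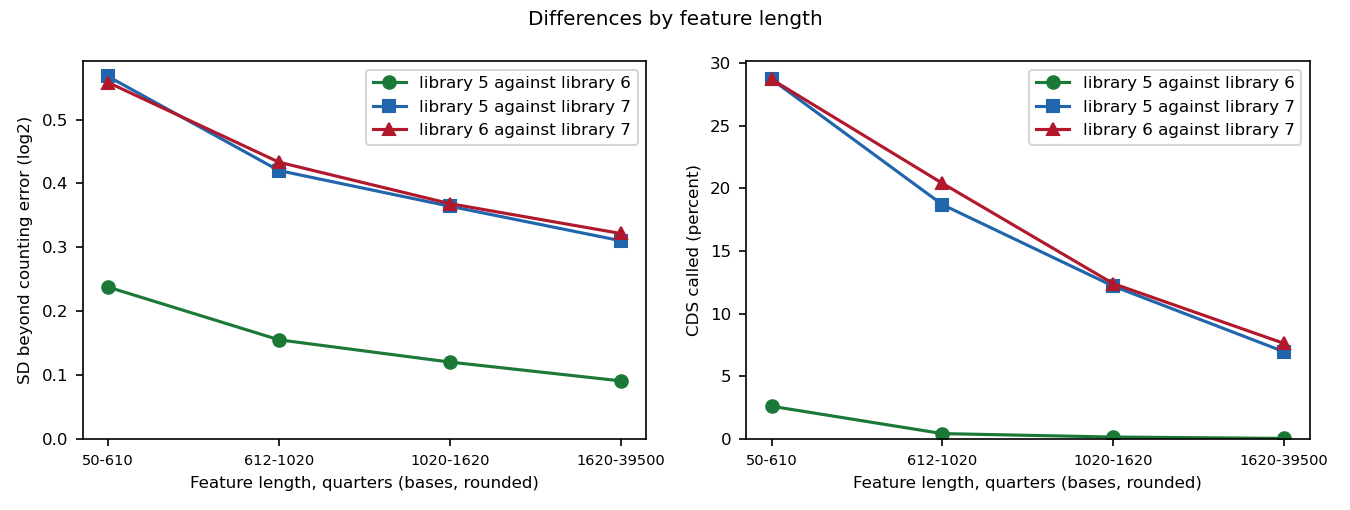
Excess SD of the log2 difference (left) and percent of CDS called (right), both on the y axis, for 4 groups of CDS ordered by feature length (x axis, in bases), with 1 line for each pair of libraries. Both measures are highest for the shortest features, with 28.7% called in each pair with library 7, and lowest for the longest.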

How the data were processed

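Ribosome-protected fragments of whole worms were measured in 8 libraries, of which the 3 L4 libraries numbered 5, 6 and 7 were compared in pairs. The values are RPKM per CDS as deposited by the authors. Tools listed in the submitters' processing notes are STAR 2.4, Bowtie2 2.2.4 and bcl2fastq 1.8.4, with no role stated for any. The genome build, the annotation and the handling of reads that map to several places were not given in the sources used here, so no coordinates are printed.

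From the RPKM steps, the reads of each CDS, the length of its feature and the total of each library were worked out with Python 3.11.15, numpy 2.4.6, pandas 2.3.3 and scipy 1.17.1. The length taken was the smallest at which the reads of every library were whole numbers, to a tolerance of 0.0001. Such a length was found for all 19649 CDS above 0 in some library. Where the read counts of a CDS share a factor, its length and reads come out too small. Such a CDS could fall in too short a length group. The recovered reads made up 99.7%, 99.7% and 99.6% of the totals of libraries 5, 6 and 7. Of the recovered lengths of the 7320 CDS, 76.3% left a remainder of 1 on division by 3, so feature length is used here in place of coding length. Symbols were looked up by sequence name through the RefSeq table, and 20051 matched while 454 did not. The figures were drawn with matplotlib 3.10.9.

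Differences were taken on log2(RPKM + 1), with exact Clopper-Pearson 95% counting intervals of the ratio of reads. The excess SD is the square root of the variance of the differences minus their mean counting variance. With 1 library a side there was no test. The calculation was tested on simulated data. Named CDS were, for each pair, the 10 largest differences in each direction among called CDS with at least 100 reads in the higher library, the 10 widest over the 3 libraries, and up to 4 most occupied members of each list. Markers of stage were named as a check. Any others are said to be chosen after their values were seen. The CDS, the 42 lists (40 with at least 5 of the CDS) and the rules were chosen with earlier results of these data known. Alternatives were median centring, quantile normalization, pseudocounts of 0.1 and 5, minimums of 50 and 1 RPKM, features of at least 300 bases and a 2-fold call. A pair of further alternatives was added after seeing the data. The first left out the major sperm, histone, actin, tubulin and nematode-specific peptide families. These are called near-identical here, though their similarity was not measured. The second asked for a mean RPKM worth at least 100 reads at the depth of library 7.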

Additional observations from a re-analysis of the deposited data

How the results depend on the processing

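The 60 CDS called between libraries 5 and 6 became 29 with a pseudocount of 5, 19 at a minimum of 50 RPKM, 179 at a minimum of 1 RPKM, 29 with features of at least 300 bases, 7 at 2-fold and 22 with at least 100 reads at library 7 depth. These alternatives other than the pseudocount and the 2-fold call also change how many CDS enter. The calls between libraries 5 and 7 became 511 at 50 RPKM, 228 at 2-fold and 685 with at least 100 reads, and those between libraries 6 and 7 became 537, 227 and 716. Under median centring, quantile normalization and a pseudocount of 0.1, and without the near-identical families, all 3 counts stayed within 1.5 times.

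The excess SD between libraries 5 and 6 was 0.165 with quantile normalization, 0.171 and 0.138 with pseudocounts of 0.1 and 5, 0.165 and 0.158 at 50 and 1 RPKM, 0.146 for features of at least 300 bases, 0.157 without the near-identical families and 0.14 with at least 100 reads. Between libraries 5 and 7 it was 0.455 and 0.37 with the pseudocounts, 0.455 and 0.4 at 50 and 1 RPKM, 0.406 for the longer features and 0.391 with at least 100 reads. Between libraries 6 and 7 the same alternatives gave 0.453, 0.374, 0.458, 0.4, 0.411 and 0.397. In each of these the pairs with library 7 stayed above the pair 5 and 6.

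With at least 100 reads at library 7 depth, 5 classes instead of 3 stood apart between libraries 5 and 6. Under a pseudocount of 5, the medians of all 120 class and pair combinations stayed within their counting spread. Median centring takes the same value off every CDS, so it could not change these medians relative to all CDS. Those of neuropeptides turned between libraries 5 and 7, to -0.526 at 50 RPKM and -0.368 with at least 100 reads; the cause was not tested. At 50 RPKM another 41 medians moved by more than their counting spread, as did 22 with at least 100 reads.

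No paired analysis was possible because the columns carry no replicate number and the results come from no test. Leaving out a library was not an option, with 1 on each side. The alternative without CDS of near-identical protein was not run, since no protein sequences were used here. Library 7 limits the depth, with under 100 reads for 2256 CDS.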

Other observations

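The 12 proteins encoded by the mitochondrial genome are made by mitochondrial ribosomes, and none of their CDS reached 10 RPKM in libraries 5, 6 or 7. Together they held 31, 43 and 40 reads. Their share of reads was 0.000119% in library 5 (exact interval 8.08e-05% to 0.000169%), 0.000197% in library 6 (0.000143% to 0.000266%) and 0.0008% in library 7 (0.000572% to 0.00109%). The share in library 7 lay above those of the others by more than counting error.

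Some CDS that differed among the L4 libraries also differed between the young-adult preparations, whose log2 difference is given as kit minus in-house, for examples chosen after their values were seen. It was 2.54 for rpl-37.2, 2.29 for ZK1248.20, 1.43 for msp-10 and -1.95 for nspc-7. For rpm-1 it was 0.05, but the young-adult RPKM of this CDS were 0.139 to 0.344, where the pseudocount of 1 holds any difference near 0. The young-adult difference was 0.00 for sid-2 and -0.06 for Y39H10B.2, which were also called between libraries 5 and 6. Over the 7320 CDS, it correlated with the difference of library 5 minus library 6 at Pearson's r of 0.174 (Spearman's rho 0.157), with that of 5 minus 7 at 0.14 (0.143) and with that of 6 minus 7 at 0.069 (0.078). Among the 60 CDS called between libraries 5 and 6, r was 0.121 (rho 0.102). These are weak relations across CDS, which share features such as length and are not replicates.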
